A study of Mus musculus with 7 samples.

Results

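The epidermal kallikreins are a family of secreted serine proteases whose genes sit side by side on mouse chromosome 7. All 9 members chosen by symbol (*Klk5*, *Klk6*, *Klk7*, *Klk8*, *Klk9*, *Klk10*, *Klk11*, *Klk13* and *Klk14*) were found among the 23284 gene symbols measured by RNA-seq. They were followed in skin papillomas of 4 control (CTR) and 3 transgenic (TG) mice, 1 papilloma and 1 library for each mouse, all in a C57BL/6 background. CTR and TG mice alike carried the *tetO-Nanog* allele, in which a *Nanog* cDNA inserted downstream of *Col1a1* is driven by a doxycycline-responsive promoter. All drank doxycycline (2 mg/ml) from before DMBA was applied, through the TPA applications and the observation period that followed. DMBA is a carcinogen that starts tumors on the back skin, here of age-matched adult mice, and TPA, applied again and again, promotes their growth. Only TG mice carried *K5-rtTA*, in which the bovine keratin 5 promoter places the transactivator in the basal layer of stratified epithelia. Papillomas were collected when the experiment ended or earlier, from mice that reached a humane endpoint such as a large tumor. The paper reports that many TG mice were killed early because of large carcinomas, so collection time may differ between the groups. The age of each mouse at collection is not given in the sources used here.

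Kallikreins of the epidermis are made as inactive precursors by keratinocytes of the upper living layers and are secreted between the cornified cells. There they activate each other in a cascade and cut the corneodesmosomes that hold the cells together, which allows the surface to shed. LEKTI, the product of *Spink5*, holds them in check, and its loss in Netherton syndrome leaves them unopposed. KLK5 and KLK14 are trypsin-like and act early in the cascade, KLK7 is a chymotrypsin-like enzyme that KLK5 can activate, and KLK8, KLK6 and the others take part in the same network or are less well understood.

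The genes are contiguous. In the deposited loci (GRCm38, plus strand) they ran over 161 kb of chromosome 7, from 43690418 to 43851181, in the order *Klk14*, *Klk13*, *Klk12*, *Klk11*, *Klk10*, *Klk9*, *Klk8*, *Klk7*, *Klk6*, *Klk5*. *Klk12* lies inside this run and is not among the 9. In the GENCODE annotation the members have between 5 and 7 exons in their longest model, and an annotated minus-strand transcript, 2310002F09Rik, overlaps the loci of *Klk14*, *Klk13*, *Klk11*, *Klk10*, *Klk9* and *Klk8*. The libraries were stranded, but whether strand was used in the abundance estimates is not given in the sources used here, so reads of that transcript cannot be told apart from those of the genes.

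The promoters of the most abundant pair, *Klk14* and *Klk10*, and of the least abundant member, *Klk5*, are shown because the values below set these genes apart. They are from RefSeq (GRCm38.p6), cover 250 bases before the start site and 50 from it on, and lie on the plus strand at chr7:43690168-43690467, chr7:43780804-43781103 and chr7:43842019-43842318. Capitals mark every match, on either strand, to CACCC, a word bound by Krüppel-like factors. In the *Klk5* promoter they also mark TAATGG, a word bound by homeodomains, that of NANOG included.
Klk14: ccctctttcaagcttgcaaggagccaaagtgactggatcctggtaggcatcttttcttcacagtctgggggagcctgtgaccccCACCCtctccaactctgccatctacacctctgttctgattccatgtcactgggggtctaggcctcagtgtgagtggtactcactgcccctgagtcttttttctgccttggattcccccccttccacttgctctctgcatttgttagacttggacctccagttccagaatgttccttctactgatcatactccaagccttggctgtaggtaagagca
Klk10: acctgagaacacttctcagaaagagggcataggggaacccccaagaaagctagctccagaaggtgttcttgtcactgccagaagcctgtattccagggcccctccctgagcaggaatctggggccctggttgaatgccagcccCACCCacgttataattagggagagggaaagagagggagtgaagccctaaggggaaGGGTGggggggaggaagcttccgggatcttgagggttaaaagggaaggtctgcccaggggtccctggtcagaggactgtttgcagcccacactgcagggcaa
Klk5: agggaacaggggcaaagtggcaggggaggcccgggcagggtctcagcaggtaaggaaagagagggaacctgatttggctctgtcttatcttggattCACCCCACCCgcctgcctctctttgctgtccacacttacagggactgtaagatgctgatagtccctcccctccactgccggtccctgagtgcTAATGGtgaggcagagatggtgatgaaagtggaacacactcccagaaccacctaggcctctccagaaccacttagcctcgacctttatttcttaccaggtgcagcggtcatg

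TAATGG occurred in 1 of the 11 member promoters listed, that of *Klk5*, 62 bases upstream of the RefSeq start, and in 7.73% of all 32851 promoters of the same length. In the GENCODE annotation *Klk5* starts at 43841971, before the whole printed stretch, so by that start the word lies inside the gene. CACCC occurred in 8 of the 11 against 57.5% of all promoters. GGGCGG, the word bound by SP factors, was found in 5 of the 11 (*Klk9*, *Klk8*, *Klk7* and both promoters of *Klk6*) against 35.7%, and its match in *Klk7* shares bases with a CACCC match. TATAAA and the AP-1 word TGANTCA were found in 0 of the 11, against 13.6% and 7.81% of all promoters. These matches describe the letters only.

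The values are FPKM, fragments scaled to transcript length and to the mapped fragments of the library, so levels of different genes can be set side by side. The confidence intervals deposited with them implied between 10074859 and 15710562 reads on genes per library, with CTR 3 and TG 1 the deepest. For the completed estimates of the members they implied between 318 reads (*Klk5* in CTR 1) and 48309 reads per gene and papilloma, and the interval reached at most 11.2% of the value to each side. The 4 failed estimates of *Klk6* have intervals that start at 0, and no reads were derived from them. *Nanog* had from 2.70 to 12.7 FPKM in CTR and from 36.9 to 66.9 FPKM in TG papillomas. The basal keratin *Krt14* had at least 4717 FPKM in every papilloma, and the suprabasal protein gene *Krtdap* at least 2689 FPKM, so each library held keratinocytes of both layers. TG 3 stood apart from the other 6 papillomas. All 11 skeletal muscle markers were found and summed to 661 FPKM in TG 3, against 1.87 to 3.33 FPKM in CTR and 3.05 to 5.45 FPKM in TG 1 and TG 2. The 8 fibroblast markers summed to 711 FPKM in TG 3 and to between 78.1 and 138 FPKM in the other 6. Myeloid and mast cell markers, 9 of 10 found, summed to 108 FPKM in TG 3 and to between 27.6 and 41.2 FPKM in the other 6. The 6 markers of simple and glandular epithelium summed to 49.3 FPKM in TG 3 and to between 1.48 and 8.90 FPKM in the other 6. Of 15 markers of spinous and granular keratinocytes, 14 were found, and they summed to 6898 FPKM in TG 3 against 10538 to 16575 FPKM in the others. The 9 adipocyte markers, mostly *Fabp4* (1680 FPKM in TG 3), summed to 1783 FPKM in TG 3, within the 1383 to 3237 FPKM of the other 6, while *Adipoq*, *Plin1* and *Cidec* were at 0 in all CTR papillomas and at 3.34, 0.824 and 1.302 FPKM in TG 3. The part of these differences in the values of TG 3 was not tested, and the differences of the 8 tested members are therefore given with and without TG 3. In bulk tissue, fewer cells of a type and less RNA per cell cannot be told apart.

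The papillomas expressed the kallikreins at very high levels, in a block of the locus that ended sharply on the *Klk5* side. The side beyond *Klk14* was not examined. The 9 members together had 4323 ± 1207 FPKM (SD, n = 4) in CTR and 3624 ± 731 FPKM (SD, n = 3) in TG papillomas, which was between 0.644% (TG 1) and 1.42% (CTR 3) of all FPKM in a library. *Klk10* ranked between 17th and 108th of all gene symbols in a papilloma, and *Klk14* between 23rd and 209th. The summed level did not differ beyond the spread between mice (2-sided exact permutation test over 35 splits, p = 0.400, where 0.0286 is the smallest possible). The lowest value of any member was 13.7 FPKM, *Klk5* in CTR 1. A gap of 42341 bases lies inside the block, between *Klk13* and *Klk12*, which were both expressed. On the far side of *Klk5*, after a shorter gap of 29990 bases, the next gene *Klk4*, which acts in tooth enamel, had at most 0.144 FPKM. The same held for *Klk15*, the glandular *Klk1* and the *Klk1b* genes beyond it. Leaving out *Klk12*, the 16 other kallikrein genes of the locus stayed at or below that value, and 4 of them were at 0 in every papilloma. The *Klk1b* genes are near-identical copies, so reads may have been split among them.

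**Figure D1:**
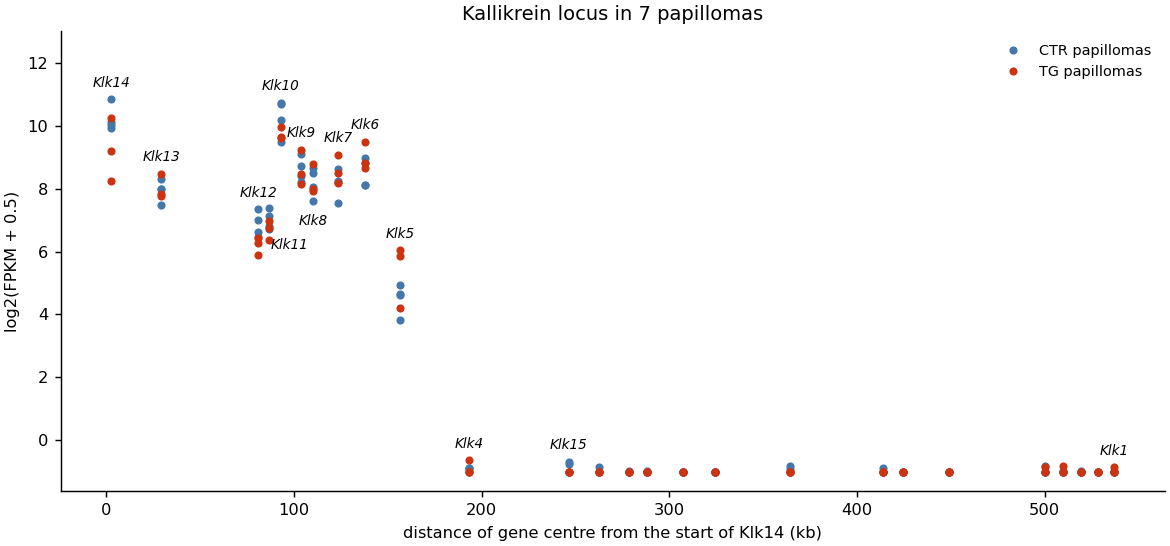
Level of each kallikrein gene, as log2(FPKM + 0.5) on the y axis, against the distance of its centre from the start of *Klk14* in kilobases on the x axis, with a point for each of the 4 CTR (blue) and 3 TG (red) papillomas. The genes from *Klk14* to *Klk5* lie at 13.7 FPKM or higher and all genes beyond *Klk5* at 0.144 FPKM or lower.

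By median over the 7 papillomas the order was *Klk14* (1036 FPKM), *Klk10* (1003 FPKM), *Klk6* (450 FPKM), *Klk9* (355 FPKM), *Klk7* (304 FPKM), *Klk8* (266 FPKM), *Klk13* (251 FPKM), *Klk11* (112 FPKM) and *Klk5* (24.9 FPKM). Neighbours in this order were compared within papillomas by a 2-sided exact permutation test of the signs of their differences, adjusted over the 8 neighbouring pairs. 3 steps passed, each with the higher gene higher in 7 of 7 papillomas: *Klk10* over *Klk6* by 1.33, *Klk13* over *Klk11* by 1.10 and *Klk11* over *Klk5* by 2.00 on the log2 scale (exact permutation p = 0.0156, adjusted p = 0.0417 for each). The remaining neighbours were not told apart, with adjusted p from 0.188 to 0.625 in the same exact test. Only neighbours were tested, and members further apart in the order can still differ: *Klk6*, *Klk9* and *Klk7* each exceeded *Klk13* in 7 of 7 papillomas. *Klk6* carries the status FAIL, an abundance estimate that Cufflinks could not complete, in CTR 1, CTR 2, CTR 4 and TG 3, and its place rests on the listed values.

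**Figure D2:**
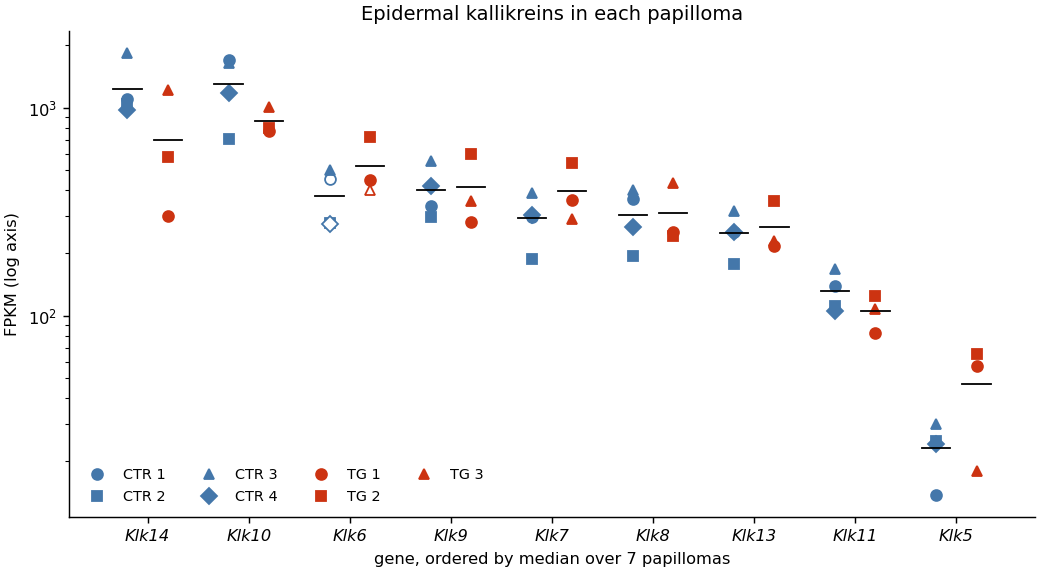
FPKM (log axis) of the 9 members in each CTR (blue) and TG (red) papilloma, ordered by median, with horizontal bars at the group means and open symbols where the deposited estimate had failed. *Klk14* spans 303 to 1827 FPKM, and the groups overlap for every member.

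To ask whether *Nanog* overexpression changed the kallikreins, TG papillomas were compared with CTR papillomas. No member passed the test in either direction. *Nanog*, the gene that was induced, did not pass it either (log2 difference 3.45, limma adjusted p = 0.400). Not passing therefore does not show that a member was unchanged. Of 8 members tested (all but *Klk6*), 0 passed at an adjusted p under 0.05 (limma on log2(FPKM + 0.5), adjusted p from 0.748 to 0.998), as did 0 of all 12299 genes tested (0%). At an unadjusted p under 0.05 there were 0 members, against 839 of all tested genes (6.82%). The TG and CTR papillomas overlapped for all 9 members, whereas 7.16% of all tested genes showed no overlap. 5 of the 8 differences were positive and 3 negative, with a median of 0.02 on the log2 scale beside 0.06 over all tested genes. Over all tested genes, 598 were higher and 241 lower at an unadjusted p under 0.05, a split that was 291 and 551 after scaling to epithelial genes, which moved the median by -0.14, 403 and 551 after quantile normalization, and 515 and 418 after upper-quartile scaling.

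*Klk14*, a trypsin-like enzyme that can activate other kallikreins, had 1106, 1036, 1827 and 979 FPKM in CTR 1 to CTR 4. It had 303, 581 and 1221 FPKM in TG 1 to TG 3. TG 1 and TG 2 were below all CTR papillomas, while TG 3 lay within their range. The log2 difference between TG and CTR was -0.998 (standard error, SE, 0.45 and limma adjusted p = 0.748), the TG value being the higher in 3 of 12 TG-CTR pairings (2-sided exact permutation test, p = 0.171). Without TG 3 it was -1.51 (adjusted p = 0.162 from limma), without TG 1 -0.51 (adjusted p = 0.629), and -0.30 within the 5 papillomas of lower depth (adjusted p = 0.843).

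*Klk5*, which starts the cascade and is a target of LEKTI, leaned the other way. It had 13.7, 24.9, 29.9 and 24.0 FPKM in CTR 1 to CTR 4. In TG papillomas it had 57.4, 65.2 and 17.9 FPKM in TG 1 to TG 3. TG 1 and TG 2 exceeded all CTR papillomas, and TG 3 again lay within the CTR range. The log2 difference was 0.86 (SE 0.44 and limma adjusted p = 0.810, TG higher in 9 of 12 pairings, exact permutation p = 0.229). Without TG 3 it was 1.44 (adjusted p = 0.105 from limma) and without TG 2 0.52 (adjusted p = 0.986).

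A ratio of *Klk14* to *Klk5* within a papilloma does not depend on scaling between papillomas. *Klk14* exceeded *Klk5* by 80.4-, 41.7-, 61.0- and 40.8-fold in CTR 1 to CTR 4. The ratio was 5.27-fold in TG 1 and 8.92-fold in TG 2, and 68.2-fold in TG 3. The share of *Klk14* in the summed FPKM of the 9 members was 10.9% in TG 1 and 14.4% in TG 2, against 23.8% to 34.4% in the CTR papillomas and 30.1% in TG 3. This ratio was chosen after the values were seen, and no test was made of it.

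*Klk7*, the chymotrypsin-like enzyme that cuts corneodesmosin, had 298, 187, 390 and 304 FPKM in CTR 1 to CTR 4, and 360, 539 and 291 FPKM in TG 1 to TG 3. TG 2 was above all CTR papillomas, and TG 1 and TG 3 were among them. The log2 difference was 0.43 (SE 0.30 and limma adjusted p = 0.842). Without TG 2 it was 0.18 (adjusted p = 0.999).

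*Klk6*, first studied in the nervous system and also made by keratinocytes, had completed estimates of 501 FPKM in CTR 3, 450 in TG 1 and 721 in TG 2. Its listed values with a failed estimate were 452, 278 and 275 FPKM in CTR 1, CTR 2 and CTR 4, and 402 FPKM in TG 3. It was left out of the main comparison. With values of every status kept, its log2 difference was 0.48 (SE 0.31 and limma adjusted p = 0.840). *Klk8*, which encodes neuropsin, had 363, 192, 400 and 266 FPKM in CTR 1 to CTR 4, and 253, 241 and 436 FPKM in TG 1 to TG 3. TG 1 and TG 2 lay between CTR 2 and CTR 4 and TG 3 was the highest of all, with a log2 difference of 0.02 (SE 0.32 and limma adjusted p = 0.995) that was -0.25 without TG 3.

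*Klk10*, the most abundant member in CTR papillomas, had 1693, 707, 1643 and 1172 FPKM in CTR 1 to CTR 4. TG papillomas had 775, 800 and 1003 FPKM in TG 1 to TG 3. The TG values were close together and lay between CTR 2 and the other CTR papillomas. The log2 difference was -0.53 (SE 0.33 and limma adjusted p = 0.837), and it ranged from -0.80 without CTR 2 to -0.38 without CTR 1.

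*Klk9*, *Klk11* and *Klk13* are expressed in stratified epithelia, and their roles are less settled. *Klk9* ranged from 297 to 554 FPKM with a median of 379 FPKM in CTR papillomas and had 283, 601 and 355 FPKM in TG 1 to TG 3. *Klk13* ranged from 178 to 318 FPKM in CTR papillomas and had 217, 356 and 228 FPKM in TG 1 to TG 3. *Klk11* ranged from 105 to 167 FPKM in CTR papillomas and had 82.7, 125 and 108 FPKM in TG 1 to TG 3. TG 2 held the highest value of all 7 papillomas for *Klk9* and *Klk13*, and TG 1 the lowest for *Klk9* and *Klk11*. The log2 differences were 0.01 for *Klk9*, 0.09 for *Klk13* and -0.31 for *Klk11* (adjusted p = 0.998, 0.981 and 0.849 from limma). Without TG 3 the log2 differences were 0.08 for *Klk9*, 0.18 for *Klk13* and -0.34 for *Klk11*, and they were 0.63 for *Klk7* and -0.65 for *Klk10*. For *Klk11* the difference was -0.14 without TG 1, -0.18 without CTR 3 and -0.44 without TG 2. Within the 5 papillomas of lower depth it was -0.018 for *Klk11*, -0.32 for *Klk10*, 0.41 for *Klk9*, 0.34 for *Klk13*, 0.29 for *Klk8*, 0.63 for *Klk7* and 0.75 for *Klk5*. The sign of *Klk9* and *Klk13* changed after scaling to epithelial genes, to -0.16 and -0.07.

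**Figure D3:**
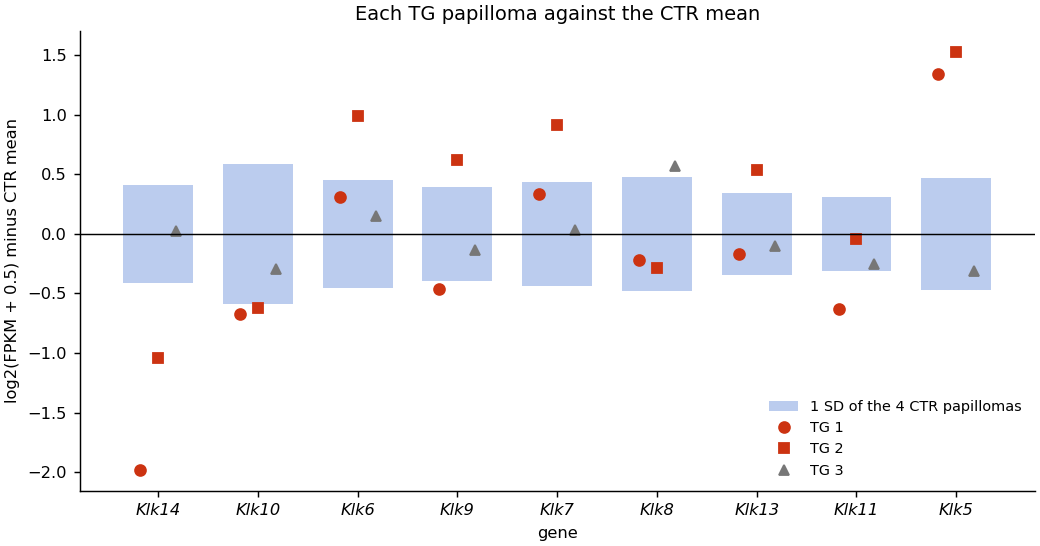
Difference of each TG papilloma from the CTR mean, in log2(FPKM + 0.5), for the 9 members, with shaded bands at 1 SD of the 4 CTR papillomas. TG 1 and TG 2 (red) lie below the band for *Klk14* (-1.98 and -1.04) and *Klk10* (-0.67 and -0.62) and above it for *Klk5* (1.35 and 1.53). At least 1 of them also leaves it for *Klk6*, *Klk7*, *Klk9*, *Klk11* and *Klk13*. TG 3 (grey) leaves the band only for *Klk8* (0.57).

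*Klk12*, the other expressed gene of the block, had 127.8, 86.7, 162 and 98.7 FPKM in CTR 1 to CTR 4. It had 59.0, 76.0 and 85.1 FPKM in TG 1 to TG 3. All TG values were below all CTR values, with a narrow gap between TG 3 and CTR 2. The log2 difference was -0.67 (SE 0.25 and limma adjusted p = 0.702), which did not pass, and the exact permutation p was 0.0571. Across all genes tested, 7.16% had groups that did not overlap.

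Across the 7 papillomas the relation between members differed widely from pair to pair, and whether they vary as a unit was not tested. Over the 28 pairs of the 8 tested members the median Pearson r was 0.34, with 23 positive and 5 negative values. The closest pair was *Klk9* and *Klk13* (r = 0.93, exact permutation p = 0.00298, adjusted p = 0.0833 over 28 pairs; Spearman's rho = 0.93, exact permutation p = 0.00675, adjusted p = 0.189). Without CTR 3 and TG 2, the papillomas farthest from the median of *Klk9*, r was 0.69. *Klk7* and *Klk13* followed with r = 0.89 (exact permutation p = 0.00972, adjusted p = 0.136; rho = 0.79, exact permutation p = 0.048, adjusted p = 0.493), and r fell to 0.50 without CTR 2 and TG 2. *Klk5* was negatively related to 4 of the 7 others, most to *Klk14* (r = -0.71, exact permutation p = 0.0742, adjusted p = 0.297; rho = -0.54, exact permutation p = 0.236, adjusted p = 0.498), and without TG 1 and TG 2 that r was 0.43. The relation of *Klk5* with *Klk14* therefore rests on those papillomas. 0 pairs passed the adjustment, and 3 had an unadjusted p under 0.05 for r. The papillomas also differ in depth and, in TG 3, in tissue makeup, and these points are shared by all pairs.

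**Figure D4:**
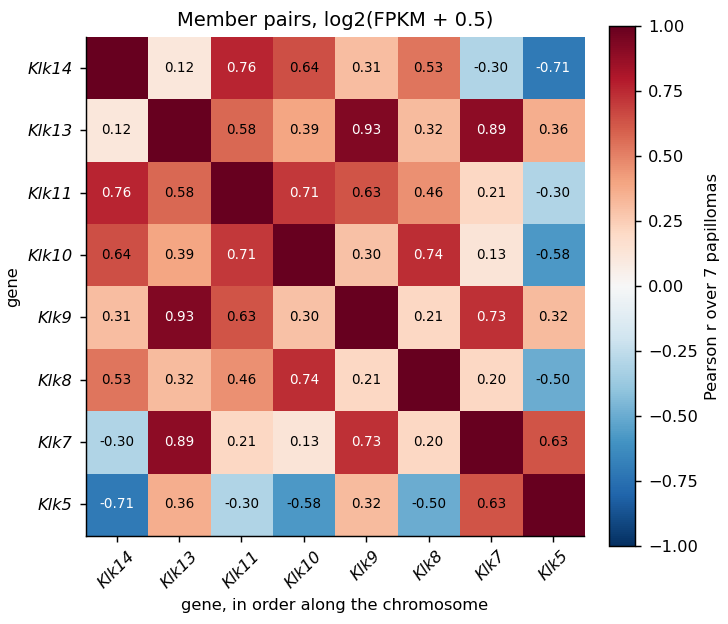
Pearson r over 7 papillomas between log2(FPKM + 0.5) values of the 8 members with completed estimates, ordered by position along the chromosome on both axes. Red is positive and blue negative, from 0.93 for *Klk9* with *Klk13* to -0.71 for *Klk5* with *Klk14*.

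The mean of the 8 members, each centered on its own mean, was highest in CTR 3 (0.47) and TG 2 (0.23) and lowest in CTR 2 (-0.37) and TG 1 (-0.28) on the log2 scale. Among the 6699 other genes whose mean reached 5 FPKM, those closest to this pattern over the 7 papillomas were *Ano9* (Pearson r = 0.99), *Solh* and *Eps8l1* (0.96 each), *Ndor1* (0.95) and *Kptn* (0.94). *Ano9* had 23.1, 15.9, 33.0 and 19.8 FPKM in CTR 1 to CTR 4, and 15.8, 26.9 and 19.6 FPKM in TG 1 to TG 3. They are the closest of 6699 and are given as a description. *Spink5* (r = -0.16), *Krt1* (-0.02) and *Krt10* (-0.08) did not share the pattern.

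The genes that act with the kallikreins were counted from lists, to be read against all tested genes, of which 6.82% had an unadjusted p under 0.05 and 7.16% had groups that did not overlap, with a median log2 difference of 0.06. Of 12 inhibitor genes, 11 were found and 7 tested. 0 passed the adjustment, and at an unadjusted p under 0.05 3 were higher and 1 was lower, with a median log2 difference of 0.94. *Spink5*, which encodes LEKTI, had 386, 277, 343 and 330 FPKM in CTR 1 to CTR 4, and 356, 186 and 329 FPKM in TG 1 to TG 3. TG 2 was the lowest, and the log2 difference was -0.25 (adjusted p = 0.912 from limma). The summed FPKM of the 9 kallikreins was between 10.9 and 17.0 times that of *Spink5* in CTR papillomas, 7.81 times in TG 1, 21.7 times in TG 2 and 12.3 times in TG 3.

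*Slpi*, a secreted protease inhibitor that also acts on KLK7, was the most abundant of the inhibitors, with 3421, 5081, 5288 and 2865 FPKM in CTR 1 to CTR 4, and 2294, 1901 and 2384 FPKM in TG 1 to TG 3. All TG values were below all CTR values, with a log2 difference of -0.88 (SE 0.31 and limma adjusted p = 0.687, exact permutation p = 0.0571). *Wfdc12*, a small relative of *Slpi*, had from 26.3 to 57.1 FPKM in CTR papillomas and 166, 86.4 and 39.1 FPKM in TG 1 to TG 3. Its log2 difference was 1.16 (adjusted p = 0.702 from limma). *Serpinb6c*, an intracellular serpin, had from 9.02 to 19.97 FPKM in CTR and from 13.7 to 34.1 FPKM in TG papillomas, a log2 difference of 0.94 (adjusted p = 0.702). *Spink12*, the third that was higher at an unadjusted p under 0.05, is named for that reason only and had from 0.189 to 1.21 FPKM in CTR and from 1.10 to 4.44 FPKM in TG papillomas. *Spink7*, another Kazal-type inhibitor, had from 33.5 to 145 FPKM in CTR and from 43.7 to 204 FPKM in TG papillomas (adjusted p = 0.921 from limma).

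Of 10 genes for activating proteases and their inhibitors, all were found and 7 tested, with 0 at an unadjusted p under 0.05 and a median log2 difference of 0.22. *St14*, the membrane protease matriptase that can activate epidermal kallikreins, had from 17.3 to 29.4 FPKM in CTR and from 15.6 to 35.02 FPKM in TG papillomas (log2 difference 0.09, adjusted p = 0.984 from limma). *Prss8*, its partner prostasin, differed by 0.26 and *Tmprss13* by 0.22 (adjusted p = 0.918 and 0.920). The matriptase inhibitors *Spint1* and *Spint2* differed by -0.24 and -0.02 (adjusted p = 0.853 and 0.994). *Tmprss11e*, the smallest p of this list, had from 2.10 to 18.3 FPKM in CTR papillomas and 14.5, 14.4 and 35.6 FPKM in TG 1 to TG 3 (log2 difference 1.29, adjusted p = 0.782).

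The list of substrates of the cell surface and cornified layer gave 11 of 13 found and 10 tested. It also counts *Tslp*, which is an induced cytokine rather than a substrate. All 10 differences were positive, with a median of 0.56 on the log2 scale, and 0 had an unadjusted p under 0.05. The share of positive differences over all tested genes is not given here, so the count of signs is a description only. Its genes did not share a pattern. *Il1b*, *F2r*, *F2rl1* and *Dsg1c* were highest in TG 3, the papilloma with more RNA of muscle, fibroblast, myeloid and simple epithelial markers. *Cdsn*, *Dsg1a*, *Dsc1*, *Flg2* and *Tslp* were highest in TG 1 or TG 2, and *Dsg1b* in CTR 1. *Cdsn*, corneodesmosin, had 387, 238, 546 and 386 FPKM in CTR 1 to CTR 4, and 610, 485 and 378 FPKM in TG 1 to TG 3 (log2 difference 0.37, adjusted p = 0.866 from limma). The desmosomal cadherins *Dsg1a* and *Dsc1* differed by 0.54 and 0.67 (adjusted p = 0.799 and 0.825). *Dsg1a* and *Dsg1b* are near-identical copies whose reads may have been split, and *Dsg1b* differed by 0.39 (adjusted p = 0.911). *Il1b*, which kallikreins can process, reached 71.9 FPKM in TG 3 and 7.06 FPKM at most in the other papillomas. *Tslp*, a cytokine induced downstream of KLK5 and the receptor PAR2, had 0.419, 21.7, 25.4 and 11.8 FPKM in CTR 1 to CTR 4, and 54.8, 69.6 and 5.70 FPKM in TG 1 to TG 3 (adjusted p = 0.848 from limma). It was highest in TG 1 and TG 2, like *Klk5*. *F2rl1*, which encodes PAR2, had from 2.65 to 4.50 FPKM in CTR and from 3.25 to 4.73 FPKM in TG papillomas.

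**Figure D5:**
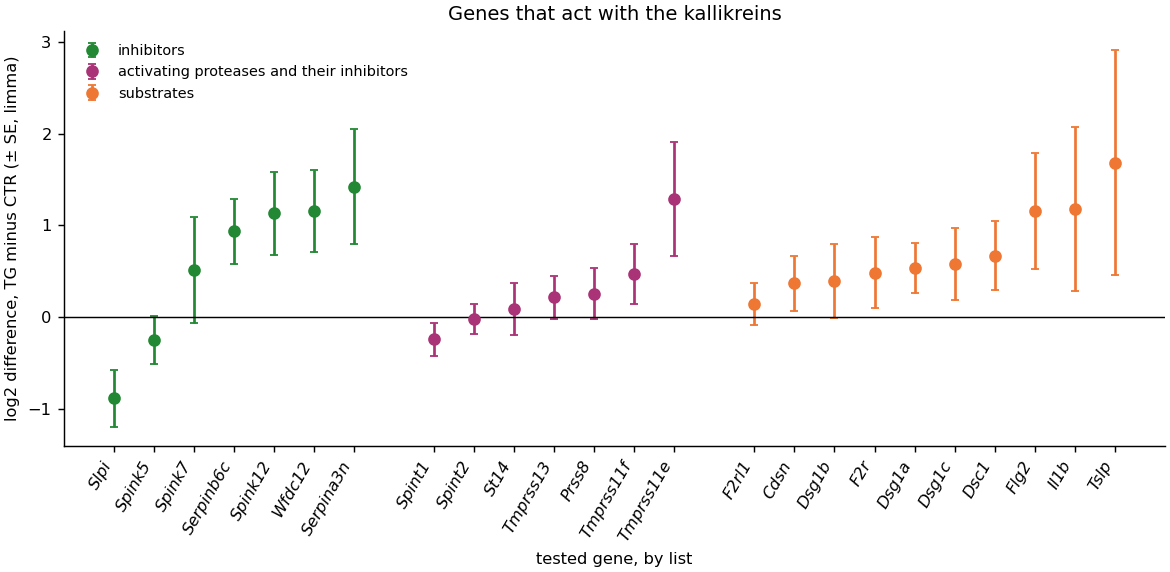
Log2 difference between TG and CTR papillomas with its standard error from limma (y axis) for the tested genes of the lists of inhibitors (green), activating proteases and their inhibitors (purple) and substrates (orange). The values run from -0.88 for *Slpi* to 1.68 for *Tslp*, an induced cytokine counted in the substrate list, and none passed the adjustment over all genes.

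Other proteases and crosslinking enzymes of late differentiation gave 9 of 11 found and tested, 0 at an unadjusted p under 0.05 and a median log2 difference of 0.03. *Casp14*, a caspase of the cornifying layer, had from 42.8 to 97.2 FPKM in CTR papillomas and 224, 266 and 17.0 FPKM in TG 1 to TG 3. TG 1 and TG 2 were above and TG 3 below all CTR papillomas. Of the 13 tested markers of spinous and granular keratinocytes, 1 was higher at an unadjusted p under 0.05, against 6.82% of all tested genes. It was *Ivl*, which encodes the envelope protein involucrin. *Ivl* had 26.8, 17.7, 18.9 and 21.2 FPKM in CTR 1 to CTR 4, and 159, 108 and 36.4 FPKM in TG 1 to TG 3 (log2 difference 2.01, standard error 0.43, adjusted p = 0.538 from limma). *Krt1*, an early suprabasal keratin, had from 187 to 807 FPKM in CTR papillomas and 1517, 3309 and 133 FPKM in TG 1 to TG 3 (adjusted p = 0.921). Of the 13 log2 differences of this list, 10 were positive and 3 negative. The negative ones were *Krtdap* (-0.49), *Lor* (-0.42) and *Sbsn* (-0.13). *Krt10* differed by 0.09, with from 917 to 1440 FPKM in CTR papillomas and 3150, 3133 and 181 FPKM in TG 1 to TG 3. Its small difference thus averages TG values above and below all CTR values. For *Casp14*, *Krt1* and *Krt10*, as for *Klk5*, TG 3 fell apart from TG 1 and TG 2.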

How the data were processed

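PolyA+ RNA of 7 papillomas was sequenced by the authors in single reads of 40 bases, aligned to GRCm38/mm10 with TopHat 2.0.4 and quantified with Cufflinks 1.3.0. The deposited values are FPKM per gene with a confidence interval and a status. Values of a symbol were summed, and symbols with the status FAIL in any papilloma were left out. File starts were moved to count from 1. Genes whose mean reached 0.5 FPKM were put on the log2(FPKM + 0.5) scale and compared with limma 3.58.1 (trend, all 7 papillomas, Benjamini-Hochberg over all tested genes) in R 4.3.3. Such differences understate changes of low genes. Papillomas came from separate mice, so p-values measure the spread between mice, which here includes that of papillomas and libraries. The fit was tested on simulated data. Single values were compared by exact permutation over 35 splits, with Python 3.11.15 and scipy 1.17.1. Implied reads are the square of 2 times FPKM over the half-width of its interval, are approximate, and cover counting error only. The members, gene lists and alternatives were chosen with earlier results of these data known. Named were the 9 members, *Klk12*, *Nanog*, genes of the inhibitor, activator and substrate lists with a mean of at least 5 FPKM or the smallest p, and the 5 genes closest to the member mean. Other genes, such as *Spink12*, *Ivl*, *Casp14*, *Krt1*, *F2rl1* and the marker genes, were named after their values were seen. Comparisons with Cuffdiff need aligned reads and were not made. Protein sequences were not used here. A gene among those closest to *Klk5* is not reported here.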

Additional observations from a re-analysis of the deposited data

Results flagged for a closer look

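*Klk14* in CTR 3, at 1827 FPKM, lay far above the other CTR papillomas, which had 979 to 1106 FPKM. Its gap to the nearest of them, divided by the range of the CTR values, exceeded Dixon's critical value of 0.829 for 4 samples. 10 groups were examined in this way, the CTR papillomas for each member and for *Klk12*, and chance flags about 1 in 20. The TG papillomas were too few to be examined. Without CTR 3 the log2 difference of *Klk14* was -0.79 (limma adjusted p = 0.999), against -0.998 with it.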

How the results depend on the processing

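22 alternatives were run, of which 20 were planned and those on depth were chosen after seeing the data. Of 176 member values, 161 kept their direction, 15 reversed and 0 had an adjusted p under 0.05 (lowest 0.0651, *Klk5* with sample quality weights). Reversals concerned *Klk8* (-0.14 with epithelial reference scaling, -0.27 with quality weights, -0.041 with upper-quartile scaling and -0.023 with the replicate block), *Klk9* (-0.16 with epithelial and -0.059 with upper-quartile scaling) and *Klk13* (-0.073 with epithelial scaling). Leaving out 1 papilloma gave -0.25 to 0.18 for *Klk8*, -0.30 to 0.24 for *Klk9* and -0.14 to 0.22 for *Klk13*. Genes at an adjusted p under 0.05 numbered 49 higher and 36 lower with quality weights, 1 and 0 in the papillomas of lower depth, and 0 to 9 higher and 0 to 8 lower when 1 papilloma was left out (9 and 8 without TG 3, 2 and 0 without TG 1, 1 and 0 without CTR 3). The cause was not tested. 3 of 9 places in the order of levels held in CTR and 5 of 9 in TG papillomas alone. With the replicate block the count of calls stayed at 0, and deviations of same-numbered papillomas correlated at -0.19, 0.04 and -0.15. So few correlations, from deviations taken within small groups, cannot decide whether the numbers pair the papillomas. For the 9 members at least 318 implied reads stood behind each completed value.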

Other observations

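The genes closest to *Klk5* and to *Klk14* over the 7 papillomas were taken after the values of both were seen. Among those closest to *Klk5* were *Tex264*, *Gdpd2*, *Lce1l* and *Aif1l* (Pearson r = 0.98 each). *Lce1l*, which encodes a late cornified envelope protein, had 48.5, 44.1 and 17.9 FPKM in TG 1 to TG 3 and from 12.0 to 24.2 FPKM in CTR papillomas. *Krt1* had r = 0.91 with *Klk5*, while the suprabasal markers *Krt10* and *Lor* had 0.67 and 0.44. The gene closest to *Klk14* was *Ocln*, which encodes the tight junction protein occludin (r = 0.99). *Ocln* had 12.5, 12.1, 16.4 and 12.1 FPKM in CTR 1 to CTR 4 and 4.34, 7.82 and 12.5 FPKM in TG 1 to TG 3. *Sp6*, a transcription factor gene of the SP family, followed with r = 0.99. These correlations are descriptions over 7 papillomas that share depth and tissue differences.

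Among markers of stressed epidermis, *S100a8* and *S100a9* had 1846 and 1510 FPKM in TG 1, 2257 and 1955 FPKM in TG 2, and 752 and 887 FPKM in TG 3. In CTR papillomas *S100a8* had from 307 to 860 FPKM and *S100a9* from 294 to 945 FPKM. Of the 8 genes of that list, 3 were higher at an unadjusted p under 0.05 and 0 at an adjusted p under 0.05 (limma), against 6.82% of all tested genes at the unadjusted threshold in either direction. *Sprr2d*, the third, had from 210 to 562 FPKM in CTR and from 753 to 961 FPKM in TG papillomas, without overlap, as for 7.16% of all tested genes (log2 difference 1.27, adjusted p = 0.564 from limma).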
